A study of Mus musculus with 8 samples.

Results

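The genes described here encode the receptors for IL-1, IL-18, IL-33 and IL-36 and their accessory chains. They were chosen by name, as the rows *Il1r1*, *Il1r2*, *Il1rl1*, *Il1rl2*, *Il18r1*, *Il18rap* and *Il1rap* of the deposited expression table, 7 of its 52636 rows. The family was put together with the response of these libraries to CD70 already known, so that the changes between CD70Tg and control mice are given below as a description and without a p-value. RNA was sequenced from splenic CD4+ Tregs (Foxp3+) and Tconvs (Foxp3-) sorted from Foxp3 reporter mice of 6 to 8 weeks of age. Control mice were CD27+/- by the study's methods, although the labels give their genotype as WT. CD70Tg mice were CD11c-Cd70tg;CD27+/-, so that the CD11c promoter, active in dendritic cells, drove CD70, and by these methods all 8 libraries came from mice with a single functional allele of its receptor CD27. Each of the 4 groups had 2 libraries of 200000 cells, sorted as CD3+ CD4+ after antibodies had removed B cells, macrophages, dendritic cells, NK cells, granulocytes and CD8+ cells. For Tconvs but not for Tregs, CD25+ cells were removed as well. Nothing states that the libraries of a group came from separate mice, and p-values here measure the spread between these libraries, which may be technical.

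In this receptor family a ligand-binding chain meets its cytokine and then recruits an accessory chain, and the joined cytoplasmic TIR domains signal through MyD88 and IRAK kinases to NF-kB. *Il1r1* encodes the signalling receptor for IL-1. *Il1r2* encodes a decoy that binds IL-1 but has no TIR domain, and *Il1rap* the accessory chain shared by the receptors for IL-1, IL-33 and IL-36. *Il1rl1* encodes ST2, the receptor for IL-33, which is well known on Tregs of non-lymphoid tissues and on type 2 cells, and *Il1rl2* the receptor for IL-36. *Il18r1* and *Il18rap* encode the 2 chains of the IL-18 receptor, typical of Th1 cells and other producers of IFN-γ.

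Of the 7 genes, 6 lie within 478 kb on chromosome 1, all on the plus strand (GRCm38, GENCODE M21). *Il1r2* (ENSMUSG00000026073) spans bases 40074079 to 40125231, *Il1r1* (ENSMUSG00000026072) 40225080 to 40317257, *Il1rl2* (ENSMUSG00000070942) 40324610 to 40367562, *Il1rl1* (ENSMUSG00000026069) 40429570 to 40465415, *Il18r1* (ENSMUSG00000026070) 40465552 to 40500854 and *Il18rap* (ENSMUSG00000026068) 40515362 to 40551705. Only 136 bp separate the end of *Il1rl1* from the start of *Il18r1*, and 14507 bp the end of *Il18r1* from the start of *Il18rap*. *Il1rap* (ENSMUSG00000022514) lies apart on chromosome 16, from 26581704 to 26730117, and 4.9% of its exon bases are shared with the annotated gene *Gm20319*. The other 6 share no exon bases with another gene, but antisense *Gm16894* lies within the bounds of *Il1r2*, and counts per gene do not separate the soluble from the membrane form of ST2.

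The promoters of the 3 genes that were called higher in both subsets are shown because these genes moved in the same direction. Each window is 300 bases of GRCm38.p6 on the plus strand from RefSeq, 250 before and 50 after an annotated start, at chr1:40085843-40086142 for *Il1r2*, chr1:40465302-40465601 and chr1:40465756-40466055 for *Il18r1* and chr1:40515112-40515411 for *Il18rap*. The *Il1r2* window lies inside the gene, away from the start of its bounds at 40074079. It overlaps the bounds of antisense *Gm16894* (40076228 to 40085851). For *Il18r1* the first window is at the start of the gene, and the second, at the third of its annotated starts, is shown because it is the one of its 3 windows that holds marked letters. The capitals mark the letters TTCNNNGAA, the core of STAT sites, read on both strands.
Il1r2: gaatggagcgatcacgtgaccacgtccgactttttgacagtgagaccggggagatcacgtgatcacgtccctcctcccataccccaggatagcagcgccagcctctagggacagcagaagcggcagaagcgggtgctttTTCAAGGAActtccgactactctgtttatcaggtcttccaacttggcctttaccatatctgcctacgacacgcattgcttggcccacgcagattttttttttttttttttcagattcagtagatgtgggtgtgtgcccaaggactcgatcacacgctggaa
Il18r1, start 1: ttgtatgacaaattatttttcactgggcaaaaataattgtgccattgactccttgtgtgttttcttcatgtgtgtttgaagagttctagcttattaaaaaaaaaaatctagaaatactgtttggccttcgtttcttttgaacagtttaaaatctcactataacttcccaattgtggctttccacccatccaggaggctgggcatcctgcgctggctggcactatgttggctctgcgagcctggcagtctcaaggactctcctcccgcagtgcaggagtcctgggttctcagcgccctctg
Il18r1, start 3: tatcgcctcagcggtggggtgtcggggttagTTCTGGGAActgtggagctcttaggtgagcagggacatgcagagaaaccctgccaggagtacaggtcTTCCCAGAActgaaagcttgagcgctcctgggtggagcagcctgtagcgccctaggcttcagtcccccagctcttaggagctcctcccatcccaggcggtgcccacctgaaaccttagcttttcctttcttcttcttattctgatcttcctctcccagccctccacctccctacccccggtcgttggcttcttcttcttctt
Il18rap: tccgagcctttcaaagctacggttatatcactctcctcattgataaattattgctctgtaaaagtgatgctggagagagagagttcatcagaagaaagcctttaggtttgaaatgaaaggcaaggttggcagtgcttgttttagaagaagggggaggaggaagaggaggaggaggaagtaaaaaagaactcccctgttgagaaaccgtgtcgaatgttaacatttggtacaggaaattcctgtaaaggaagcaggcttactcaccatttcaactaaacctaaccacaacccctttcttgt
The 7 genes have 11 such windows, since *Il18r1* has 3 starts, *Il1r1* and *Il1rl1* have 2 each, and the windows of the upstream *Il18r1* starts overlap. TTCNNNGAA was in 2 of the 11, against 8.3% of all 32851 promoter windows of this length. It was found once for *Il1r2*, beginning 111 bases before the start, and at 2 places for the third start of *Il18r1*, beginning 219 and 152 bases before it, and not for its other starts. The letters TCACACC, a core of T-box sites, were in none of the 11 windows and in 3.98% of all, and GGGACTTTC, from an NF-kB site, was in none and in 0.353% of all. These are matches of letters and describe no binding.

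All values are the deposited ones, HTSeq counts that were scaled to 20 M per library and rounded up, so that 20 stands for 1 read per M. The size of a single read, read off the low values of each library, gives 6.94 to 33.22 M reads on genes for the Tconv libraries and 1.91 to 4.57 M for the Treg libraries, and 3 reads are worth 1.8 to 8.6 and 13.1 to 31.3, respectively. Such a floor covers counting error only, and the numbers for the 19.88 and 33.22 M libraries are less certain because their steps are near or under 1. *Foxp3* was 19769 to 21367 in the Treg and 1039 to 1497 in the Tconv libraries, and *Cd4* was at least 16100 in all 8. Since these are bulk samples, fewer cells of a type and less RNA per cell cannot be told apart. In tests with limma on log2(value + 5), a gene was called when the Benjamini-Hochberg adjusted p-value was under 0.05 and the absolute log2 fold change over 1, among the 12816 genes that reached 60 in 2 libraries or more. *Il1r1* did not reach this level, and the other 6 did. Fold changes refer to the values with 5 added, so that those of low genes come out too small.

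In Tregs, 3 of the 6 tested genes were called higher in CD70Tg than in control mice (*Il1r2*, *Il18r1*, *Il18rap*) and 0 lower, where 2.53% of all genes tested were called higher and 1.08% lower. In Tconvs, 4 were called higher (the same 3 and *Il1rl1*) and 0 lower, where 4.07% of all genes were called higher and 0.577% lower. As this contrast served to choose the family, nothing is read from these counts. Between the subsets, in control mice 2 genes were called higher in Tregs (*Il1rl1*, *Il1r2*) and 2 lower (*Il1rl2*, *Il18rap*), against 14.7% and 4.43% of all genes. In CD70Tg mice the same 4 genes were called in the same directions, against 12.3% and 4.94%. Only *Il1rl1* was called for a difference between the responses of Tregs and Tconvs, which holds for 0.882% of all genes.

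**Figure D1:**
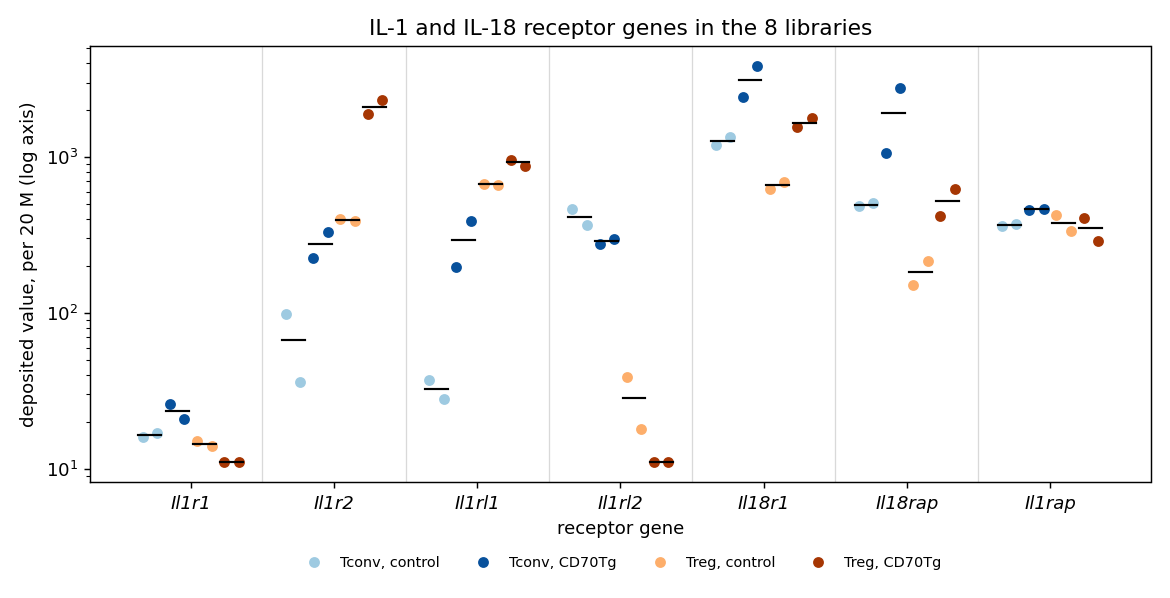
Values of the 7 receptor genes in each of the 8 libraries, as deposited per 20 M, on a log axis. Points are libraries, 2 in each group, and bars are group means. *Il18r1*, *Il18rap*, *Il1r2* and *Il1rl1* lie higher in both CD70Tg libraries than in both controls of the same subset, and *Il1rl2* is near 11 in CD70Tg Tregs.

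The genes of the IL-18 receptor were higher with the transgene in both subsets, and lower in Tregs than in Tconvs in both kinds of mice. *Il18r1*, the ligand-binding chain, was 1191 and 1336 in control Tconvs and 2424 and 3842 in CD70Tg Tconvs. In Tregs it was 626 and 692 in control and 1557 and 1768 in CD70Tg mice. Both CD70Tg libraries thus exceeded both control libraries in each subset, and the CD70Tg Tregs exceeded the control Tconvs as well. The change was 2.51-fold in Tregs (log2 fold change 1.33 ± 0.17 SE) and 2.41-fold in Tconvs (1.27 ± 0.17). The latter was 0.94 without the second CD70Tg Tconv library, under the threshold for a call. The responses of the subsets differed by 0.06 ± 0.25 on the log2 scale (95% interval -0.46 to 0.58, adjusted p = 0.96). In control mice *Il18r1* was 1.91-fold lower in Tregs (log2 fold change -0.93 ± 0.17, adjusted p = 4e-04), and in CD70Tg mice 1.84-fold lower (-0.88 ± 0.17, adjusted p = 0.00081). Both differences passed the adjusted p-value but not the fold threshold, which the one in control mice passed with TMM factors (-1.12), with median-of-ratios factors (-1.06) and without the first control Tconv (-1.02) or the second control Treg library (-1.005). The one in CD70Tg mice passed it with TMM factors (-1.01) and without the first CD70Tg Tconv library (-1.21).

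*Il18rap*, the chain that completes the signalling complex for IL-18, was 482 and 503 in control Tconvs and 1061 and 2772 in CD70Tg Tconvs. The second CD70Tg library was thus far above the first. In Tregs it was 151 and 215 in control mice and 418 and 626 in CD70Tg mice, again without overlap. The change was 2.79-fold in Tregs (1.48 ± 0.32) and 3.46-fold in Tconvs (1.79 ± 0.32). In Tconvs it was 1.10 without the second CD70Tg library and 2.48 without the first, and in Tregs it was no longer called without the first control library (1.23) or the second CD70Tg library (1.19), or with limma-voom on the numbers of reads (1.56). It was called in neither subset when no minimum value was set. No difference between the responses passed the test (-0.31 ± 0.45, 95% interval -1.27 to 0.65, adjusted p = 0.88). *Il18rap* was 2.68-fold lower in Tregs than in Tconvs of control mice (-1.42 ± 0.32, adjusted p = 0.0018) and 3.33-fold lower in CD70Tg mice (-1.74 ± 0.32, adjusted p = 0.00045). The latter value was -2.43 without the first CD70Tg Tconv library and -1.04 without the second, and was called in both cases. In control mice the call was lost with limma-voom on the numbers of reads (adjusted p = 0.094) and without a minimum value (adjusted p = 0.055), where the alternatives ranged from 8e-05 to 0.094.

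Per kb of exon, *Il18rap* was 0.289 and 0.269 of *Il18r1* in control Tconvs and 0.312 and 0.515 in CD70Tg Tconvs. In Tregs the ratio was 0.172 and 0.222 in control mice and 0.192 and 0.253 in CD70Tg mice. The ratio of the accessory to the binding chain was therefore below that of every Tconv library in all 4 Treg libraries, and control and CD70Tg Tregs overlapped. Over the 8 libraries the 2 genes had a Pearson r of 0.977 on the log2 scale. These libraries hold the 4 groups, so that r describes the groups more than any variation within them.

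The IL-1 receptors differed from each other, with the decoy *Il1r2* abundant in Tregs and the signalling receptor *Il1r1* low in all groups and at the floor in Tregs. *Il1r2* was 99 and 36 in control Tconvs and 225 and 329 in CD70Tg Tconvs. In Tregs it was 398 and 390 in control mice and 1881 and 2322 in CD70Tg mice. Control Tregs thus stood above all 4 Tconv libraries, and CD70Tg Tregs stood above every other library. The change was 5.25-fold in Tregs (2.39 ± 0.32) and 4.24-fold in Tconvs (2.09 ± 0.32), and in Tconvs it depended on the control libraries, with 2.76 without the first and 1.41 without the second, and was not called when no minimum value was set. The responses differed by 0.31 ± 0.45 (95% interval -0.65 to 1.27, adjusted p = 0.88). *Il1r2* was 6.11-fold higher in Tregs than in Tconvs of control mice (2.61 ± 0.32, adjusted p = 7.3e-06) and 7.56-fold higher in CD70Tg mice (2.92 ± 0.32, adjusted p = 3.2e-06), and both calls were kept in all 19 alternatives. In control mice the value was 3.28 without the first control Tconv library and 1.94 without the second.

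*Il1r2* is also a gene of neutrophils, which the depletion of granulocytes and the sort are meant to remove, and the 6 neutrophil markers summed to 309 to 336 in control Tregs and 881 to 1057 in CD70Tg Tregs, and to 92 to 145 and 104 to 235 in Tconvs. In Tregs *S100a9* was 0 and 5 in control and 95 and 104 in CD70Tg mice, and *Mmp9* 321 and 272 and then 617 and 854. In the same order *S100a8* was 5 and 0 and then 74 and 55, and *Csf3r* 5 and 27 and then 63 and 44. *Cxcr2* was 5 and 5 and then 21 and 0. *Ly6g* was at 0 in 3 of the 4 Treg libraries and at 11 in the other, where 3 reads are worth 31.3. Of the 6, *Mmp9* and *S100a9* passed the minimum value and both were called higher in CD70Tg than in control Tregs. Against Tconvs, *Mmp9* was called higher in control Tregs, and both genes were in CD70Tg Tregs. Their part in the *Il1r2* values of Tregs was not tested. Antisense *Gm16894* was 10 and 31 in control Tregs and 32 and 33 in CD70Tg Tregs.

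*Il1r1* was 16 and 17 in control Tconvs, 26 and 21 in CD70Tg Tconvs, 15 and 14 in control Tregs and 11 and 11 in CD70Tg Tregs. All 4 Treg libraries had at most 3 reads, so that no difference between them was detectable at this depth. *Il1rap*, the shared accessory chain, stayed within a narrow range, from 289 to 463 in all 8 libraries. It was 362 and 371 in control Tconvs, 459 and 463 in CD70Tg Tconvs, 423 and 333 in control Tregs and 408 and 289 in CD70Tg Tregs. It was not called in any of the 5 contrasts. The log2 fold change with the transgene was -0.13 ± 0.21 in Tregs and 0.33 ± 0.21 in Tconvs. Between Tregs and Tconvs it was 0.03 ± 0.21 in control mice (95% interval -0.41 to 0.48, adjusted p = 0.91) and -0.42 ± 0.21 in CD70Tg mice (95% interval -0.86 to 0.03, adjusted p = 0.12). The sign in control mice turned under TMM factors (-0.15).

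*Il1rl1* was the one member called for a difference between the responses of the subsets. In Tconvs it was 37 and 28 in control mice and 196 and 389 in CD70Tg mice. In Tregs it was 675 and 657 in control mice and 962 and 881 in CD70Tg mice. CD70Tg Tconvs stood between control Tconvs and control Tregs, without overlap on either side. The change was 7.56-fold in Tconvs (2.92 ± 0.28), with 2.43 without the second CD70Tg library and 3.40 without the first, and 1.38-fold in Tregs (0.46 ± 0.28), which was not called. Mean values rose from 32.5 to 292.5 in Tconvs and from 666.0 to 921.5 in Tregs, similar amounts on the deposited scale. As a fold, the response in Tregs was 5.48-fold smaller than that in Tconvs (log2 difference -2.45 ± 0.39, 95% interval -3.28 to -1.63, adjusted p = 0.0044). The change in Tconvs, which was in view when the family was chosen, enters this difference, so that it is not independent of the choice. It was called in all alternatives that leave out 1 library, between -2.94 and -1.97, but not without a minimum value (adjusted p = 0.23, where the alternatives ranged from 0.00016 to 0.23), where 26467 genes were tested.

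Tregs had 18-fold more *Il1rl1* than Tconvs in control mice (4.17 ± 0.28, adjusted p = 6.4e-09) and 3.29-fold more in CD70Tg mice (1.72 ± 0.28, adjusted p = 0.00013). *Foxp3* in Tconvs was 1039 and 1497 in control and 1170 and 1285 in CD70Tg mice, with the CD70Tg libraries between the controls. The 4 Treg markers summed to 2695 and 3346 in control Tconvs and 2915 and 3399 in CD70Tg Tconvs. Of these *Ctla4* was higher in CD70Tg Tconvs (493 and 496 against 663 and 1090, 1.71-fold, adjusted p = 0.0059), below the fold threshold, while *Il2ra* was 599 and 965 against 548 and 488 (-0.55 ± 0.17, adjusted p = 0.053). Their part in the *Il1rl1* values of Tconvs was not tested. *Fcer1a*, a marker of mast cells and basophils, was at 0 in all 8 libraries, and the 6 markers of these ST2-bearing cells summed to 59 to 127 in all 8, with 2 to 4 of the 6 at 0 in each library. They summed to 70 and 73 in control Tconvs and to 64 and 116 in CD70Tg Tconvs.

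*Il1rl2* ran the other way. It was 461 and 367 in control Tconvs and 277 and 299 in CD70Tg Tconvs, and 39 and 18 in control Tregs and 11 and 11 in CD70Tg Tregs. In the CD70Tg Tregs these values are 1 and 2 reads, so that only a bound can be given. Each of the 4 Tconv libraries was above each of the 4 Treg libraries. *Il1rl2* was 13.1-fold lower in Tregs of control mice (-3.71 ± 0.36, adjusted p = 5.4e-07), and in CD70Tg mice it was at least 12.1-fold lower in Tregs, taken against the mean value of 3 reads in these 2 libraries (adjusted p = 1.9e-07). Both calls were kept in all 19 alternatives. With the transgene *Il1rl2* was not called in either subset, with a log2 fold change of -0.51 ± 0.36 in Tconvs. In Tregs the control values lie on both sides of 23.8, the mean value of 3 reads in the CD70Tg libraries, and no fold is given. The fitted log2 fold change, which depends on the pseudocount, was -0.52 without the first control Treg library and -1.46 without the second, where it was called.

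**Figure D2:**
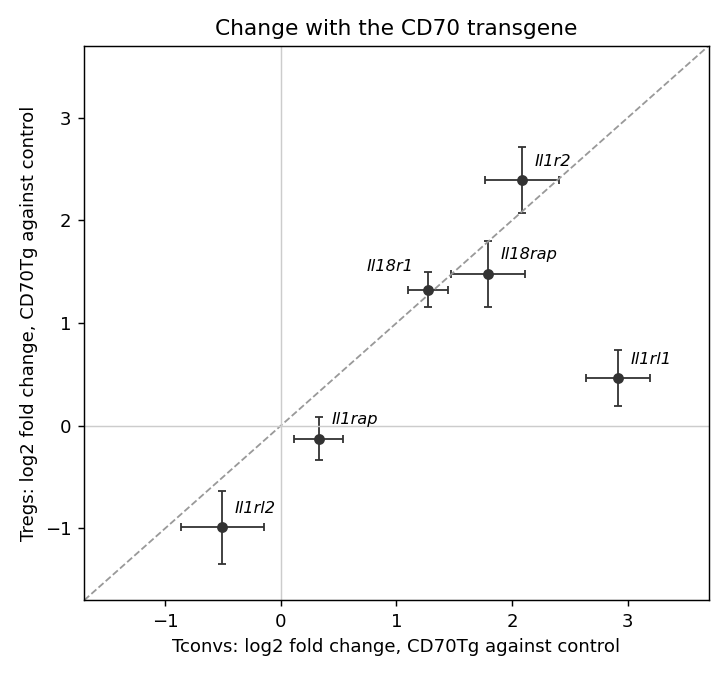
Log2 fold change between CD70Tg and control libraries in Tconvs (horizontal axis) and Tregs (vertical axis) for the 6 tested genes, with standard errors from limma and a dashed line of equal change. *Il1rl1* lies at 2.92 in Tconvs and 0.46 in Tregs, off the line, and *Il1rl2* in CD70Tg Tregs rests on 1 and 2 reads.

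Per kb of exon, which allows levels to be set side by side between genes, *Il18r1* had the highest mean level of the 7 in Tconvs and *Il1r2* in Tregs. In control Tconvs *Il18r1* was at 262 per kb, followed by *Il18rap* at 72.9, *Il1rl2* at 60.8, *Il1r2* at 35.4, *Il1rap* at 32.3, *Il1rl1* at 4.71 and *Il1r1* at 2.59. The libraries of *Il1r2* and *Il1rap* overlapped in this order. In control Tregs *Il1r2* was at 206.5 per kb, *Il18r1* at 137, *Il1rl1* at 96.6, *Il1rap* at 33.3 and *Il18rap* at 27.1, and those of *Il1rap* and *Il18rap* overlapped. With the transgene *Il1r2* reached 1101 per kb in Tregs, above *Il18r1* at 345, *Il1rl1* at 134, *Il18rap* at 77.3 and *Il1rap* at 30.7. In CD70Tg Tconvs *Il18r1* was at 650.4 per kb, *Il18rap* at 284 and *Il1r2* at 145, the last 2 with libraries that overlapped, and below them *Il1rl1* at 42.4, *Il1rl2* at 42.3 and *Il1rap* at 40.6 overlapped.

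Along the chromosome 1 cluster, changes with the transgene did not follow the order of the genes. *Il1rl1* and *Il18r1*, whose bounds are 136 bp apart, had log2 fold changes of 0.46 and 1.33 in Tregs and 2.92 and 1.27 in Tconvs, and they stood on opposite sides of the subsets in control mice, at 4.17 and -0.93. Per kb, *Il1rl1* was 0.015 to 0.071 of *Il18r1* in Tconvs and 0.348 to 0.753 in Tregs. *Il1rl2*, between *Il1r1* and *Il1rl1*, was higher in Tconvs. Its neighbour *Il1rl1* was higher in Tregs, as was *Il1r2*, which lies beyond the untested *Il1r1*. Within 500 kb of the cluster 28 genes are annotated, the 6 receptors included, and of the others only *Rnf149* and *Map4k4* were tested. Neither was called in any of the 5 contrasts, but *Map4k4* was lower in CD70Tg than in control Tregs, at 3354 and 3426 against 4683 and 4585 (-0.45 ± 0.11, adjusted p = 0.016), below the fold threshold. The nearest protein-coding genes downstream, *Slc9a4* and *Slc9a2*, were at 0 to 3.

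**Figure D3:**
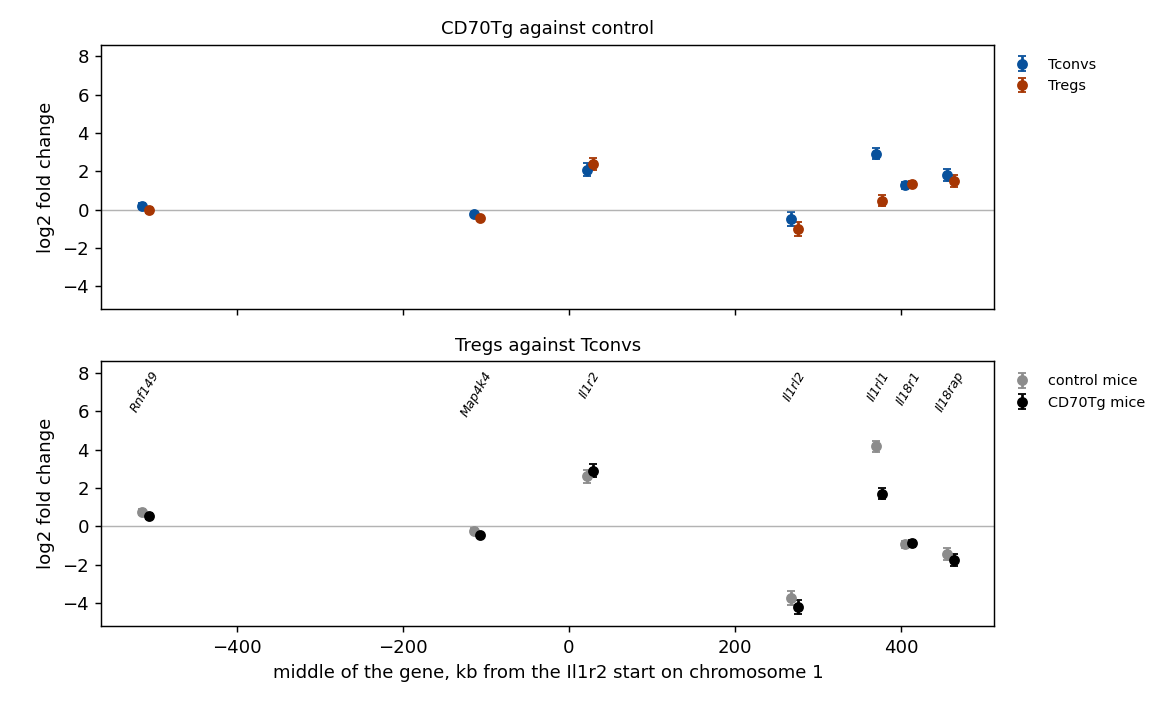
Log2 fold changes with standard errors from limma along the chromosome 1 cluster, by the middle of each tested gene in kb from the *Il1r2* start. The upper panel shows CD70Tg against control in each subset, and the lower one Tregs against Tconvs in each kind of mice, where *Il1r2* and *Il1rl1* lie above 0 and *Il1rl2*, *Il18r1* and *Il18rap* below. *Il1rl2* in CD70Tg Tregs rests on 1 and 2 reads.

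Of the ligands and antagonists of the family, 11 of 16 listed genes were in the table and 3 were tested. *Il18bp*, which encodes the soluble inhibitor of IL-18, was 103 and 99 in control Tconvs and 219 and 403 in CD70Tg Tconvs, and was called higher there (2.85-fold, 1.51 ± 0.28, adjusted p = 0.0016). In Tregs it was 204 and 206 in control and 293 and 294 in CD70Tg mice and was not called. *Il18* and *Il1rn*, the IL-1 receptor antagonist, named after their values were seen, were called higher in Tregs than in Tconvs of both kinds of mice. *Il18* was 141 and 154 in control Tregs and 9 and 26 in control Tconvs. *Il1rn* was 34 and 71 in control Tregs and 3 in both control Tconv libraries. Of 5 myeloid markers, 3 were also called higher in Tregs than in Tconvs of control mice and 4 in CD70Tg mice. None of the 5 was called lower, and 14.7% and 12.3% of all genes were called higher. The part of myeloid cells in the *Il18* and *Il1rn* values was not tested. Among the other receptors *Sigirr*, which encodes an inhibitory member, was at 1750 to 3062 and was not called in any of the 5 contrasts, and *Il1rapl1* and *Il1rapl2* were at 0 to 3.

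All 22 listed genes of signalling from these receptors, from *Myd88* and the IRAK kinases to NF-kB and its inhibitors, were tested. None was called in Tregs with the transgene (median log2 fold change 0.06, against -0.05 over all genes tested), and in Tconvs 1 was, *Nfkb1* (median 0.10, against 0.01). At an unadjusted p-value under 0.05 in limma, 3 of the 22 were higher and 0 lower in Tregs, where 9.36% of all genes were higher and 12.3% lower. In Tconvs 6 were higher and 0 lower, where 12.3% of all genes were higher and 6.76% lower. The 3 in Tregs, named after their values were seen, were *Nfkbia* (0.54 ± 0.13, adjusted p = 0.015), *Tnfaip3* (0.49 ± 0.13, adjusted p = 0.029) and *Nfkb1* (0.43 ± 0.12, adjusted p = 0.037), below the fold threshold, of which *Nfkbia* and *Tnfaip3* encode inhibitors of the pathway. *Nfkb1*, which encodes the p105 precursor of NF-kB, was 3517 and 3081 in control Tconvs and 6163 and 7295 in CD70Tg Tconvs (1.03 ± 0.12, adjusted p = 2.1e-05). Below the fold threshold in Tconvs, and also named after their values were seen, were *Tnfaip3* (0.83 ± 0.13, adjusted p = 0.00037) and *Nfkbiz* (0.79 ± 0.16, adjusted p = 0.0034). So were *Nfkbia* (0.56 ± 0.13, adjusted p = 0.0089) and *Irak2* (0.59 ± 0.17, adjusted p = 0.043). *Myd88*, the adaptor of the family, was 2084 to 2762 in Tconvs and 1585 to 1757 in Tregs. Between the subsets of control mice 5 of the 22 were called higher in Tregs and 0 lower, against 14.7% and 4.43% of all genes. In CD70Tg mice 3 were higher and 1 lower, against 12.3% and 4.94%, so that both shares are near those of all genes.

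The receptors are also markers of T helper types. Of 10 Th1 genes, 6 were called higher with the transgene in Tregs and 5 in Tconvs, and 0 lower in either, against 2.53% of all genes higher and 1.08% lower in Tregs and 4.07% and 0.577% in Tconvs. *Eomes*, a T-box factor, was 93 and 75 in control Tregs and 1547 and 1458 in CD70Tg Tregs, and rose from 352 and 258 to 2807 and 3386 in Tconvs. *Ifng* was 64 and 71 in control and 168 and 300 in CD70Tg Tregs, and 105 and 72 against 718 and 2111 in Tconvs. The second CD70Tg Tconv library was the highest of the 8 for *Ifng*, for *Il18r1* and for *Il18rap*. *Cxcr3*, a chemokine receptor of Th1 cells, was called higher in both subsets (1.64 ± 0.16 in Tregs, 1.25 ± 0.16 in Tconvs), and *Il12rb1*, a chain of the IL-12 receptor, in Tconvs (1.93 ± 0.20). *Ifngr2*, a chain of the receptor for IFN-γ, was lower in CD70Tg Tconvs, at 776 and 764 against 1159 and 1164 (-0.59 ± 0.15, adjusted p = 0.016), below the fold threshold.

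Of 12 genes of type 2 cells and tissue Tregs 8 were tested, of which 1 was called higher with the transgene in Tregs and 4 in Tconvs, where 2.53% and 4.07% of all genes were. In Tconvs these were *Il10* (4.80 ± 0.48), *Klrg1* (3.58 ± 0.30), *Rora* (1.64 ± 0.17) and *Ccr8* (1.07 ± 0.21), and in Tregs *Klrg1* (1.49 ± 0.30). *Klrg1*, an inhibitory receptor, was 38 and 76 in control Tconvs, 479 and 1027 in CD70Tg Tconvs, 1218 and 1585 in control Tregs and 3783 and 4073 in CD70Tg Tregs. Its responses differed by -2.09 ± 0.42 (adjusted p = 0.021), and those of *Il10* by -3.73 ± 0.67 (adjusted p = 0.011), in the direction found for *Il1rl1*. *Irf4* was called for this difference as well (-1.39 ± 0.30, adjusted p = 0.033), with 2267 and 2194 in control and 1484 and 1354 in CD70Tg Tregs. These are 3 of the 8 genes, against 0.882% of all genes. The lists were chosen with earlier results of these data known, so that nothing is read from this count. *Gata3*, the main factor of Th2 cells, was 1435 to 1735 in the Tconv and 3083 to 3334 in the Treg libraries and was not called with the transgene. Of 7 Th17 genes 3 were tested, of which *Rora* and *Ccr6* (1.14 ± 0.22) were called higher in Tconvs and 0 in Tregs, where 2 were higher at an unadjusted p-value under 0.05 in limma, against 9.36% of all genes.

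**Figure D4:**
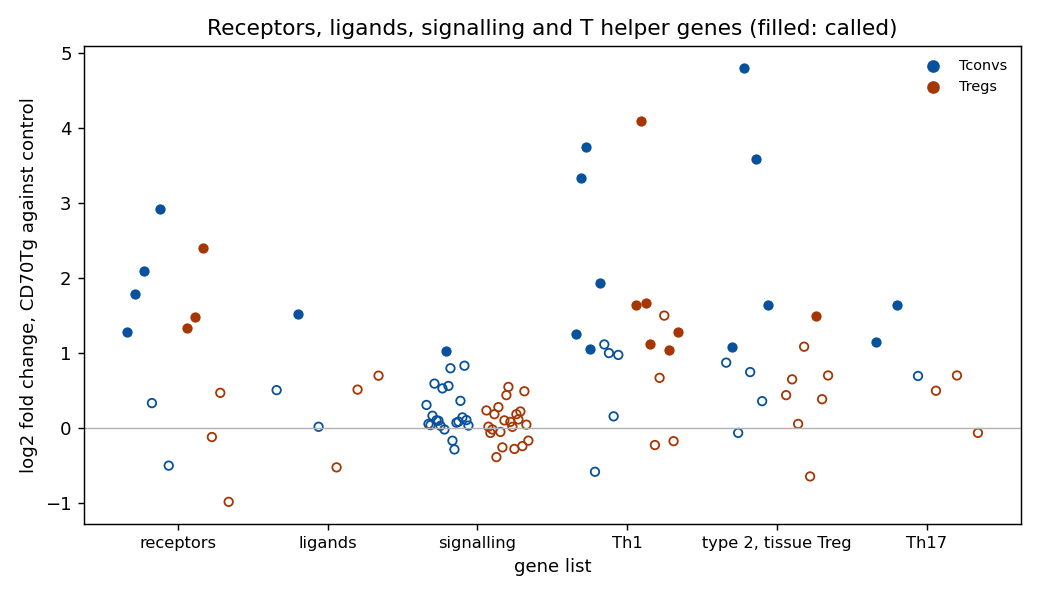
Log2 fold change between CD70Tg and control libraries for each tested gene of the receptor family and of 5 other lists, with Tconvs in blue and Tregs in brown. Filled points were called in limma, and 21 of the 22 signalling genes in Tconvs and all 22 in Tregs were not.

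Some markers of other cells, which the depletion and the sort are meant to remove, also differed with the transgene. *Cd8a* was 17 and 28 in control and 508 and 608 in CD70Tg Tconvs, and 25 and 71 against 262 and 223 in Tregs, and was called in both. *Cd8b1*, the other CD8 gene, was 703 and 653 against 1055 and 982 in Tconvs (1.5-fold) and 292 and 346 against 398 and 408 in Tregs (1.26-fold), and was called in neither. The 5 dendritic cell markers summed to 66 and 133 in control and 177 and 340 in CD70Tg Tconvs, and to 94 and 156 against 389 and 356 in Tregs. Of these *Zbtb46* was called higher in CD70Tg Tregs (25 and 27 against 209 and 191, 6.61-fold, adjusted p = 0.0017) and *Itgax* in CD70Tg Tconvs (31 and 57 against 101 and 236, 3.38-fold, adjusted p = 0.015). The 4 NK markers, from cells that also carry the IL-18 receptor, summed to 417 and 444 in control Tconvs and 81 and 88 in CD70Tg Tconvs, and to 64 and 36 against 0 and 11 in Tregs. Most of these sums was *Klrb1c* (403 and 423 in control Tconvs, 75 and 68 in CD70Tg Tconvs), while *Ncr1* and *Klra8* were at 0 to 2 in all 8 libraries. The 5 myeloid markers summed to 1535 and 1509 in control and 1132 and 1450 in CD70Tg Tconvs, and to 2769 and 2758 against 2949 and 2770 in Tregs. Of these *Itgam* was called higher in CD70Tg Tregs (2.19-fold, adjusted p = 0.013) and *Cd68* in CD70Tg Tconvs (4.07-fold, adjusted p = 0.00011). Others were lower but below the fold threshold, with *Csf1r* at -0.67 ± 0.18 in Tregs (adjusted p = 0.029) and *Itgam* at -0.95 ± 0.26 in Tconvs (adjusted p = 0.027). *Lyz2*, at -0.61 ± 0.19 in Tconvs (adjusted p = 0.057), passed neither threshold. The 4 B cell markers summed to 128 and 132 in control and 61 and 81 in CD70Tg Tconvs, and to 244 and 357 against 441 and 420 in Tregs, and of the 2 tested none was called in either subset. The part of the B cell, CD8, dendritic, NK and myeloid markers in the receptor values was not tested.

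The genes most like each receptor were taken by Pearson correlation of log2(value + 5) over the 8 libraries, as a description. They were *Nfkbia* and *Hpse* for *Il1r2* (r = 0.9925 and 0.9914), *Map6* and *Ncapg* for *Il1rl1* (0.9986 and 0.996), and *Txk* and *Akr1b3* for *Il1rl2* (0.9979 and 0.9967). For *Il18r1* they were *Kcnj8* and *Gzma* (0.9803 and 0.9796), for *Il18rap* *Cmpk2* and *Sytl3* (0.9839 and 0.9822), and for *Il1rap* *Gm45867* and *Zfand2a* (0.9015 and 0.8717). *Nfkbia*, which encodes an inhibitor of NF-kB, was 4825 and 3784 in control Tconvs, 5950 and 6636 in CD70Tg Tconvs, 7764 and 7115 in control Tregs and 10971 and 10690 in CD70Tg Tregs. Its groups thus stood in the same order as those of *Il1r2*. *Gzma*, which encodes granzyme A, was 46 and 65, 257 and 661, 10 and 27, and 115 and 87 in the same order of groups. Within the family *Il1r2* and *Il1rl1* had an r of 0.903, and *Il1r2* and *Il18r1* of 0.077.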

How the data were processed

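Per the labels, RNA of 4 groups of sorted splenic CD4+ cells was sequenced, with 2 libraries in each. The authors trimmed reads with Trimmomatic 0.36, mapped them to mm10 with STAR 2.5.3 and counted them per gene with HTSeq 0.9.1. The deposited score values are these counts scaled to 20 M per library and rounded up, with totals of 19963628 to 20164600, which hides the depth except in the step of the low values, from which numbers of reads were recovered. The controls are WT in the labels, F1 in the titles, KO in the columns and CD27+/- in the methods, and were matched because each subset has no other group without CD70.

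The 4131 rows with names derived from clones were left out, and of 97 names on several rows the row with the largest total kept the name. In R 4.3.3, limma 3.58.1 with a variance trend fitted log2(value + 5) by group, with 12.3 prior degrees of freedom, for the 12816 genes that reached 60 in 2 libraries or more. The Benjamini-Hochberg adjustment ran over all of them in each of 5 contrasts. With 2 libraries against 2, an exact permutation test cannot go below p = 0.333, and none was run. The authors' DESeq2 test needs counts, which the deposited values are not, and it was not run on the recovered reads either. The procedure was tested on simulated data.

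The members and lists were chosen with earlier results of these data known. Every member is described, with up to 4 genes of each other list except the cell type markers, those with the largest absolute log2 fold change among genes called in either CD70Tg contrast, and the 2 genes most like each tested member. Other genes were named after their values were seen. Positions are from GENCODE M21, which holds 99.6% of the identifiers, and exon lengths are of merged exons. All 7 members matched the RefSeq promoter windows. Protein sequences were not used here. Alternatives were other pseudocounts, minimum values and scaling factors, limma-voom on recovered reads, the 4 libraries of a comparison alone, no fold threshold, clone-named rows kept, and leaving out each library in turn.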

Additional observations from a re-analysis of the deposited data

Results flagged for a closer look

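The response of *Il1rl1* to the CD70 transgene differed between the subsets, with a log2 fold change of 0.46 in Tregs and 2.92 in Tconvs and a difference of -2.45 ± 0.39 (limma, adjusted p = 0.0044, 2 libraries per group). Both CD70Tg libraries exceeded both control libraries in each subset. The change in Tconvs was in view when the family was chosen, so that the p-value is not independent of that choice, and without a minimum value the difference was not called (adjusted p = 0.23, where the alternatives ranged from 0.00016 to 0.23).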

How the results depend on the processing

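Over 19 alternatives to the 5 contrasts, 533 of 563 log2 fold changes of the 6 tested genes kept their direction and their side of the threshold, 10 lost the threshold, 9 passed it (2 of them because the fold threshold was dropped) and 11 turned their sign, and all that turned were values that were not called. Without a minimum value 26467 genes were tested. In that setting 2 in place of 3 genes were called higher in Tregs (*Il18rap* was lost) and 2 in place of 4 in Tconvs (*Il18rap* and *Il1r2* were lost). For the difference between responses 0 in place of 1 were called, and 1 in place of 2 lower in control Tregs than Tconvs. With limma-voom on recovered reads the last count was also 1, and *Il18rap* was not called in Tregs (1.56). The cause was not tested for either setting. *Il1rap* in control Tregs against Tconvs went from 0.03 to -0.15 with TMM factors, which moved the median of all genes to -0.11 in this contrast and to -0.15 in CD70Tg mice, and to -0.09 with median-of-ratios factors. When each library was left out in turn, 0 to 1 genes were called lower in CD70Tg Tregs, and log2 values ranged from -0.37 to 0.12 for *Il1rap* in Tregs and from -0.14 to 0.20 in control Tregs against Tconvs. For the difference between responses they ranged from -1.001 to 0.38 for *Il18rap*, from -0.28 to 0.39 for *Il18r1* and from -0.37 to 0.98 for *Il1r2*. In these fits a group with a lone library is assumed to vary like the others. Depth limits *Il1r1* and *Il1rl2* in Tregs. No paired analysis was possible because the columns carry no replicate numbers, so that the numbered sample titles cannot be matched to them.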
